A study of Mus musculus with 6 samples.

Results

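The chondroitin and dermatan sulfotransferases are the enzymes that place sulfate groups on chondroitin sulfate and dermatan sulfate chains. The 7 genes Chst3, Chst7, Chst11, Chst12, Chst14, Chst15 and Ust were taken as members, and a probe set was assigned to a member when the RefSeq accession in its name belongs to that gene. All 7 were found among the 909 genes that could be named in the table. They were read by 8 of its 1246 probe sets, because Ust has 2. Where a gene has several, the probe set with the highest mean over the arrays stands for it.

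The series measured RNA from MLE-15 cells on Affymetrix arrays. MLE-15 cells are mouse lung epithelium that the large T antigen of SV40 keeps dividing, so every array comes from the same transformed line. The treated group is 3 arrays of MLE-15 cells exposed to PMA at 10 nM for 24 h, and the control group is 3 arrays of MLE-15 cells without PMA. PMA is a phorbol ester and a direct activator of protein kinase C. Dose and time come from the design text of the series, which gives its aim as learning whether sulfotransferases are present and induced by PMA. Whether replicates are separate cultures is not said in the labels. The p-values therefore rest on the spread between these arrays alone, which may be technical.

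Chondroitin chains alternate glucuronic acid with N-acetylgalactosamine (GalNAc), and in dermatan sulfate part of the glucuronic acid has been epimerized to iduronic acid. Sulfotransferases in the Golgi transfer sulfate from the donor PAPS to fixed positions of these sugars, and the resulting pattern sets which growth factors, chemokines and matrix proteins the chain binds. In the lung such chains are carried by proteoglycans of the cell surface and of the matrix, such as syndecans, versican and decorin. GalNAc receives sulfate at carbon 4 from the enzymes of Chst11 and Chst12 in chondroitin and from that of Chst14 in dermatan. It receives sulfate at carbon 6 from the enzymes of Chst3 and Chst7, while the product of Chst15 adds a carbon 6 sulfate to GalNAc that already carries the carbon 4 sulfate. The product of Ust sulfates the uronic acid at carbon 2.

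The arrays labelled replicate 1 stood apart from the rest in both groups. An array of number 1 and an array of another number were more than 2-fold apart in 110 to 125 probe sets, whereas the PMA and control arrays of number 1 were so in 1 and the other 4 arrays among themselves in 0. What a number stands for is not said, but the titles of numbers 2 and 3 have a letter that those of number 1 lack. Array medians lay between 5.64 and 5.71 on the log2 scale of the deposited RMA values. Of 13 lung epithelial markers only the surfactant protein genes Sftpa1 and Sftpd were measured, so the labelled cell type could hardly be checked, and no gene was called present or absent because the table gives no detection calls. PMA is therefore compared with control over all arrays and within the numbers.

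Promoters are printed for Ust, Chst14 and Chst12, the members with the largest differences between number 1 and the other arrays, and for Chst7, the member with the largest difference between PMA and control arrays. Each is the window from 250 bases before to 50 bases after the start of the gene in RefSeq (GRCm38.p6), 5′ to 3′ on the strand of the gene, with the GC box in capitals (GGGCGG, or CCGCCC where it lies on the opposite strand), the motif bound by Sp1 and related factors. The Ust window is chr10:8518776-8519075, minus strand, that of Chst14 is chr2:118926247-118926546, plus strand, that of Chst12 is chr5:140505359-140505658, plus strand, and that of Chst7 is chrX:20059320-20059619, plus strand.
Ust: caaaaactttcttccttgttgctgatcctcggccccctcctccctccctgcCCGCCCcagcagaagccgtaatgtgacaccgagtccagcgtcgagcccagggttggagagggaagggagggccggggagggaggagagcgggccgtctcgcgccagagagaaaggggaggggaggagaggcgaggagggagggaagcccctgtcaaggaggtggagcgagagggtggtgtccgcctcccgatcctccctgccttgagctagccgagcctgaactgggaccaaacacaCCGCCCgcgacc
Chst14: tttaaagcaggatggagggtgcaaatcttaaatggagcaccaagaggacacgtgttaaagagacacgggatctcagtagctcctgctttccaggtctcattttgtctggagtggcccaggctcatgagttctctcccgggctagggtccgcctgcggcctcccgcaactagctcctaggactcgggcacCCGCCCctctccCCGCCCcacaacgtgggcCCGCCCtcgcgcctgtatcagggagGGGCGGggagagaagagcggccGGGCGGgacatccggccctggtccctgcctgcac
Chst12: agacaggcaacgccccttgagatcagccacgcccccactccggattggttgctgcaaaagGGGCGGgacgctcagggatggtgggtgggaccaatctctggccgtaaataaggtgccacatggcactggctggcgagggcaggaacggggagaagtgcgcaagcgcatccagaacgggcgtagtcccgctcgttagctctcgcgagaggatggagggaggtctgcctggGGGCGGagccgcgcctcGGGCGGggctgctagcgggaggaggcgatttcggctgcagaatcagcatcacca
Chst7: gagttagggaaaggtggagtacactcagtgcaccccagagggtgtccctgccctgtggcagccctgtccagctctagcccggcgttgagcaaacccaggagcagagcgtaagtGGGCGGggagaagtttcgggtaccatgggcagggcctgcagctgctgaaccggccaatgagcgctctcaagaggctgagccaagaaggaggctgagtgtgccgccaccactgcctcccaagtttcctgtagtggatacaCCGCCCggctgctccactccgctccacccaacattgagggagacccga

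These windows were rich in G and C, and each held a GC box. RefSeq lists 8 windows for the 7 members, since Chst15 has 2 that overlap. All 8 held a GC box on either strand, from 1 in Chst3 to 5 in Chst14, against 35.7% of the 32851 promoter windows of all genes. GC content ran from 55% to 71%, against a median of 52.7% over all windows, and CpG dinucleotides numbered 12 to 34, against a median of 7. The TPA response element (TGANTCA, searched on both strands), through which phorbol esters are known to act on many genes by way of the factor AP-1, was in 0 of the 8 windows and in 7.81% of all windows. The cAMP response element (TGACGTCA) and the TATA box (TATAAA) were also in 0 of the 8, against 1.79% and 13.6% of all windows. The GC box was thus the only motif of the 4 found, and a missing match says only that the letters are not in this window.

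The first comparison asks whether PMA changed the members. By group mean 6 of 7 members were lower in PMA arrays, against 47.8% of all probe sets, and 1 was higher, with differences between -0.18 and 0.065 log2 units and a median of -0.060, against a median of 0.0033 over all probe sets. By limma with Benjamini-Hochberg adjustment over all 1246 probe sets, 0 of the 7 passed an adjusted p of 0.05, as did 0 (0%) of all probe sets, and each member had an adjusted p of 0.999. At an unadjusted p under 0.05 there were 0 members and 4 probe sets in all (0.321%). No member had PMA and control arrays that did not overlap, which 22 probe sets (1.77%) reached with PMA below and 20 (1.61%) with PMA above. Values are given below as the RMA value of each array in the order of its number, then for most members as the mean ± SD of each group (n = 3), and the SE of a difference is limma's moderated standard error.

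**Figure D1:**
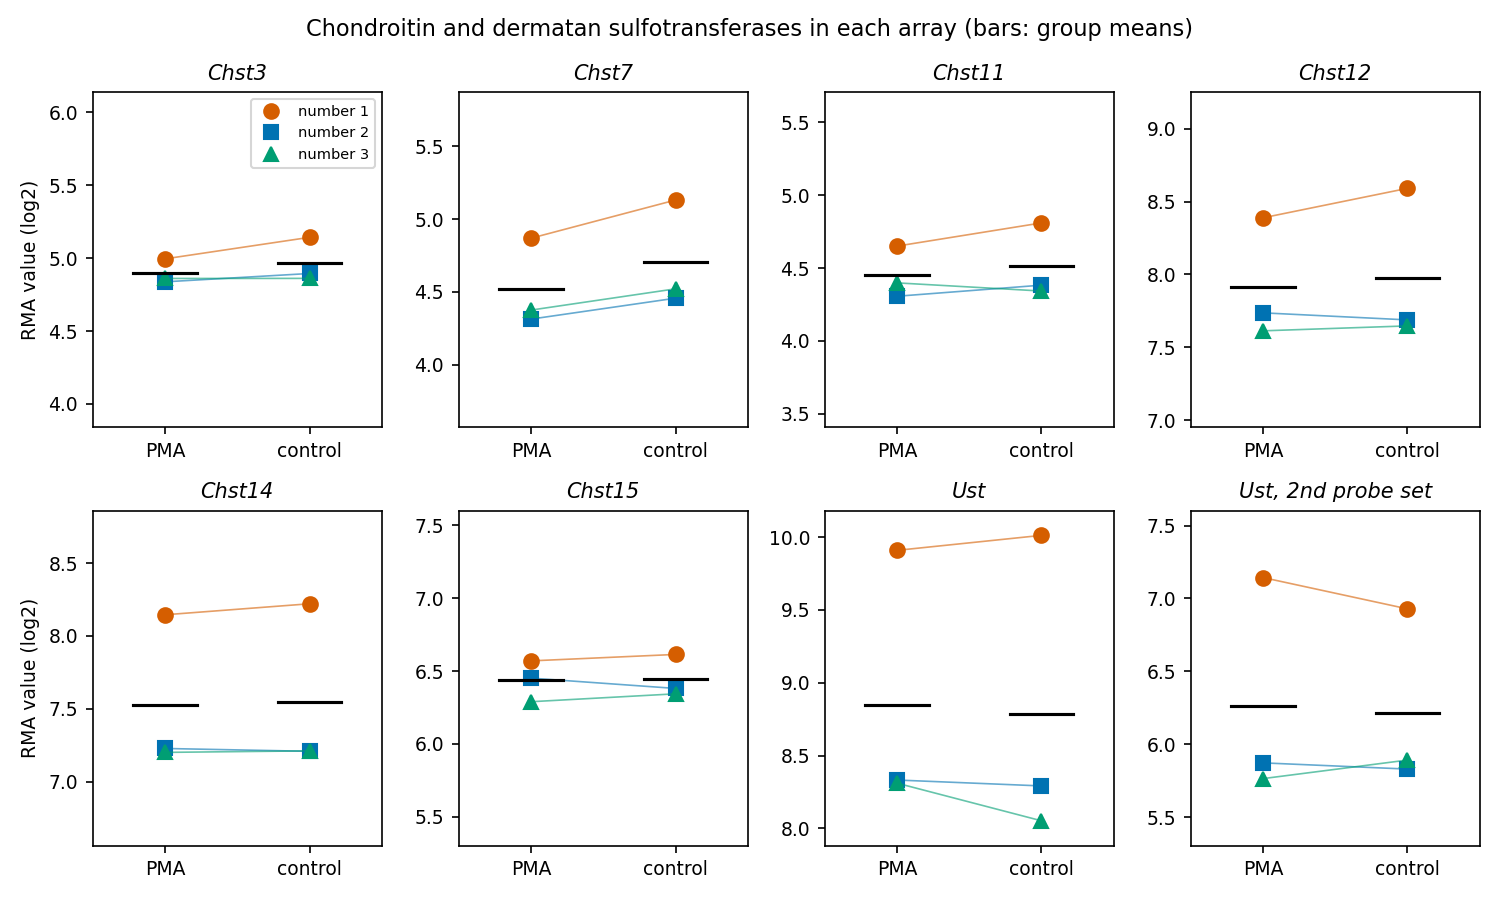
RMA values (log2, y axis) of the 8 probe sets in PMA arrays (left) and control arrays (right), with the replicate number as marker and colour, lines joining arrays with the same number and bars at the group means; every panel spans the same number of log2 units. In every panel the number 1 arrays lie above the other 4, while the PMA and control means differ by at most 0.18 log2 units.

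The carbon 4 sulfotransferases come first. Chst11, whose loss in mice causes severe chondrodysplasia, had values of 4.65, 4.31 and 4.40 in PMA arrays, against 4.81, 4.38 and 4.34 in control arrays. Its means were 4.45 ± 0.18 in PMA and 4.51 ± 0.26 in control arrays, a difference of -0.060 log2 units (SE 0.16). Number 1 was the highest in each group, and PMA was below control in numbers 1 and 2 only. Chst12, the second chondroitin 4-O-sulfotransferase, had 8.39, 7.74 and 7.61 in PMA arrays, against 8.59, 7.69 and 7.65 in control arrays. It averaged 7.91 ± 0.42 in PMA and 7.98 ± 0.53 in control arrays, a difference of -0.063 (SE 0.34). Here the groups overlapped throughout, and without number 1 the difference was 0.0073. Chst14, the dermatan 4-O-sulfotransferase, whose loss in humans causes a form of Ehlers-Danlos syndrome, had 8.14, 7.23 and 7.20 in PMA arrays, against 8.22, 7.21 and 7.21 in control arrays. The means were 7.52 ± 0.54 in PMA and 7.55 ± 0.58 in control arrays, a difference of -0.022 (SE 0.39). The 4 arrays of numbers 2 and 3 lay within 0.027 log2 units of each other for Chst14, the narrowest range of any member.

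Of the carbon 6 sulfotransferases, Chst7 had the largest difference among the members. Chst7, whose enzyme can also sulfate N-acetylglucosamine, had 4.87, 4.31 and 4.38 in PMA arrays, against 5.13, 4.46 and 4.52 in control arrays. PMA was below control in every number, with differences of -0.26, -0.14 and -0.15 log2 units. That order in all 3 numbers was met by 2 of the 7 members, Chst7 and Chst3, and by 158 of all probe sets (12.7%), while 0 members and 10.4% of all probe sets were higher in every number. With the number as a block, the Chst7 difference of -0.18 (SE 0.066) had an unadjusted p of 0.0221, as 42 probe sets (3.37%) had one under 0.05, and an adjusted p of 0.992 by limma. Without number 1 the difference was -0.14 (SE 0.075), so the direction was kept with the numbers balanced; with control 1 alone left out, it was 0.030. Chst3, whose loss in humans causes a skeletal dysplasia, had 5.0, 4.84 and 4.86 in PMA arrays, against 5.14, 4.89 and 4.86 in control arrays. It averaged 4.90 ± 0.085 in PMA and 4.97 ± 0.15 in control arrays, a difference of -0.068 (SE 0.10). For Chst3 the third number gave a difference of only -0.00057, so the sign there carries no weight. Chst15, which makes the disulfated chondroitin sulfate E unit, had 6.57, 6.45 and 6.29 in PMA arrays, against 6.61, 6.38 and 6.34 in control arrays. Its difference was -0.0092 (SE 0.11), the smallest of the members, with opposite signs among the numbers.

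Ust was the member with the higher mean in PMA arrays, and its probe sets differed in sign by number. The probe set with the higher mean read 9.91, 8.33 and 8.31 in PMA arrays, against 10.01, 8.29 and 8.05 in control arrays. It averaged 8.85 ± 0.92 in PMA and 8.79 ± 1.07 in control arrays, a difference of 0.065 (SE 0.70). The second probe set read 7.14, 5.87 and 5.76 in PMA arrays, against 6.93, 5.83 and 5.89 in control arrays, a difference of 0.043 (SE 0.49). The differences by number were -0.10, 0.041 and 0.26 for the first and 0.22, 0.043 and -0.13 for the second, so numbers 1 and 3 had opposite signs in the 2 probe sets. Their names carry the suffixes s and x, which in Affymetrix naming mark probes shared by several transcripts or open to cross-hybridization.

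How large a PMA difference these arrays would still allow depends on whether the number enters the fit. With the number ignored, the 95% interval for Ust ran from -1.68 to 1.81 log2 units and that for Chst14 from -1.01 to 0.96, and 3 of the 7 member intervals (Chst3, Chst11 and Chst15) lay within 0.58 log2 units (about 1.5-fold) of 0, against 76.5% of all probe sets. With the number as a block, all 7 did, against 99.7% of all probe sets. In that fit the upper ends ran from -0.033 for Chst7 to 0.25 for Ust, which is a 1.19-fold increase, and the lowest lower end was -0.33 for Chst7, a 1.26-fold decrease. These bounds are on the RMA value of the probe set. For a dim probe set that value also holds unspecific binding, and Chst3, Chst7 and Chst11 lay between 4.31 and 5.14 on arrays with lower quartiles of 4.32 to 4.43 and medians near 5.7.

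**Figure D2:**
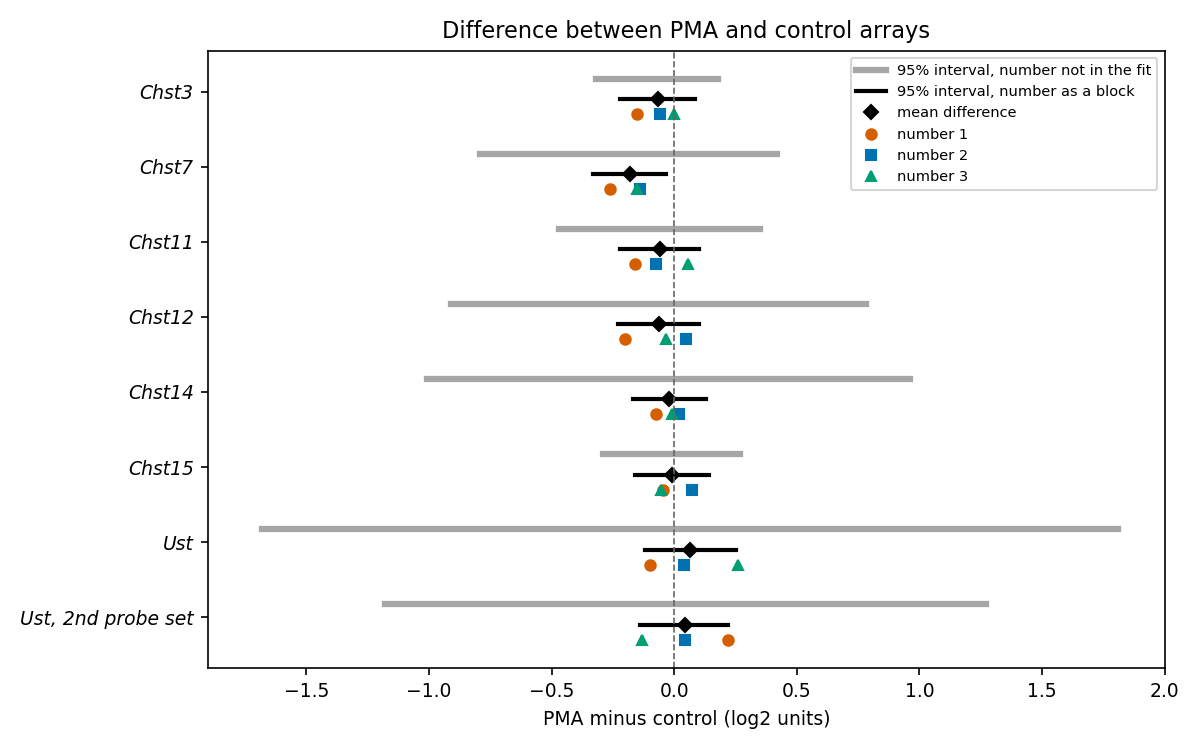
PMA minus control (log2 units, x axis) for each member probe set, with the 95% interval from the fit without the number (grey) and with the number as a block (black), the mean difference (diamond) and the difference within each number (coloured markers). The black intervals are all shorter, the Chst7 interval from -0.33 to -0.033 is the only one of them that leaves out 0, and none of the differences passed the adjustment.

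The rest of the pathway was read from lists of 58 gene symbols around these enzymes. Of the 40 genes measured, 0 passed for PMA in the limma fit. At an unadjusted p under 0.05 there were also 0. In the synthesis of the chain backbone all 5 measured genes had a higher mean in PMA arrays, against 651 of the 1246 probe sets. Their differences lay between 0.045 and 0.21 log2 units, each smaller than its SE with the number ignored. Chsy3, a chondroitin synthase, read 5.35, 7.0 and 6.85 in PMA arrays, against 5.22, 6.64 and 6.76 in control arrays, and Csgalnact1, which adds the first GalNAc of the chain, differed by 0.21 (SE 0.41). With the number as a block these were the 2 backbone genes with an unadjusted p under 0.05, at 0.0277 for Chsy3 and 0.0438 for Csgalnact1. Among the core proteins Tgfbr3, at 0.0163, and Cd44, at 0.0432, were likewise under it, as were 3.37% of all probe sets. No gene of the lists passed the adjustment in that fit, where the smallest adjusted p was 0.992 by limma. Dsel, a dermatan sulfate epimerase that makes the iduronic acid beside which the Chst14 enzyme sulfates GalNAc, differed by -0.10 (SE 0.24) and was lower in PMA in all 3 numbers. Enzymes of the linker between protein and chain differed little, with B3galt6 at 0.13 and Xylt2 at -0.088. Of 9 genes listed for the supply of sulfate only 3 were measured, and these also differed little. Slc35b3, a PAPS transporter, was at -0.044 and the PAPS synthase Papss2 at -0.030. Among 7 genes of degradation Hyal1, a hyaluronidase, differed by 0.20 and Arsb, the lysosomal GalNAc 4-sulfatase, by 0.14. Of 17 genes listed as core proteins 12 had a higher and 5 a lower mean, led by Cd44, a hyaluronan receptor, at 0.23 and versican (Vcan), of the matrix, at 0.20. Chst8 and Chst9, which sulfate GalNAc on hormone N-glycans, differed by 0.095 and -0.029. Chst13, also a GalNAc sulfotransferase and not among the members, was not measured.

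The second comparison sets the 2 arrays of number 1 against the 4 of numbers 2 and 3, with PMA as a term in the fit. The number was singled out after earlier results had shown these arrays apart, and it stands for 1 pair against 2, so its p-values compare these arrays only. All 7 members were higher in number 1 and passed the adjusted p of 0.05 by limma, against 343 of all probe sets (27.5%) called higher and 176 (14.1%) called lower, 519 (41.7%) in all; after quantile normalization 278 of 510 called probe sets were higher. All 7 also had an unadjusted p under 0.05, against 48.8% of all probe sets. The median difference was 0.58 log2 units over the members and 0.079 over all probe sets. In all 7 the lower array of number 1 was above the highest of the other 4 arrays, as in 37.8% of all probe sets; 0 members and 18.1% of all probe sets had both below.

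Ust, the uronyl 2-O-sulfotransferase, had the largest difference. In number 1 it read 9.91 with PMA and 10.01 in control, while the other 4 arrays lay between 8.05 and 8.33, so the gap between the groups was 1.58 log2 units. The mean difference was 1.71 (SE 0.089, adjusted p = 9.61e-08 by limma), which is 3.28-fold. Its second probe set differed by 1.20 (SE 0.080), or 2.29-fold, and both its arrays of number 1 again lay above the other 4.

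Of the carbon 4 sulfotransferases, Chst14 and Chst12 came after Ust and Chst11 had a smaller difference. Chst14 read 8.14 with PMA and 8.22 in control in number 1, against 7.20 to 7.23 in the other arrays, a difference of 0.97 (SE 0.066, adjusted p = 7.22e-07 by limma) or 1.96-fold. Chst12 read 8.39 and 8.59 in number 1, against 7.61 to 7.74, a difference of 0.82 (SE 0.077), or 1.76-fold. Chst11 read 4.65 and 4.81, against 4.31 to 4.40, a difference of 0.37 (SE 0.071), or 1.29-fold. In each of these 3 genes the gap between the groups was wider than the whole range of the other 4 arrays.

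Among the enzymes of carbon 6, Chst7 had the largest difference. Chst7 read 4.87 and 5.13 in number 1, against 4.31 to 4.52 in the other arrays, a difference of 0.58 (SE 0.069, adjusted p = 5.15e-05 by limma). Chst15 read 6.57 and 6.61, against 6.29 to 6.45, a difference of 0.23 (SE 0.073, adjusted p = 0.0290 by limma). Chst3 read 5.0 and 5.14, against 4.84 to 4.89, a difference of 0.21 (SE 0.068, adjusted p = 0.0320 by limma). The calls for Chst3 and Chst15 were the weakest. Both were lost with each array centred on its median, at adjusted p = 0.0884 for Chst3 and 0.0659 for Chst15, and Chst3 also after quantile normalization, at 0.0565. Both were lost as well when PMA 1, PMA 3, control 1, control 2 or control 3 was left out, with adjusted p from 0.0518 to 0.262 for Chst3 and from 0.0612 to 0.187 for Chst15. The other 5 members passed with any array left out.

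Ordered by size of the difference, the members ran Ust, Chst14, Chst12, Chst7, Chst11, Chst15 and Chst3. The interval of Ust (1.51 to 1.91) lay above that of Chst14 (0.82 to 1.12), but the interval of the second Ust probe set (1.02 to 1.38) overlapped it. Chst14 and Chst12 (0.65 to 0.99) overlapped, as did Chst12 and Chst7 (0.43 to 0.74), Chst7 and Chst11 (0.21 to 0.53), and Chst11 with Chst15 and Chst3. Chst14 lay above Chst7, and Chst12 above Chst11, without overlap. The order is one of differences and not of levels, because probe sets bind their targets with unequal strength. Sizes also depend on the probe set, since the interval of the second Ust probe set did not overlap that of the first. Chst3, Chst7 and Chst11 read between 4.31 and 5.14, where a value also holds unspecific binding. What that did to the order was not tested.

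**Figure D3:**
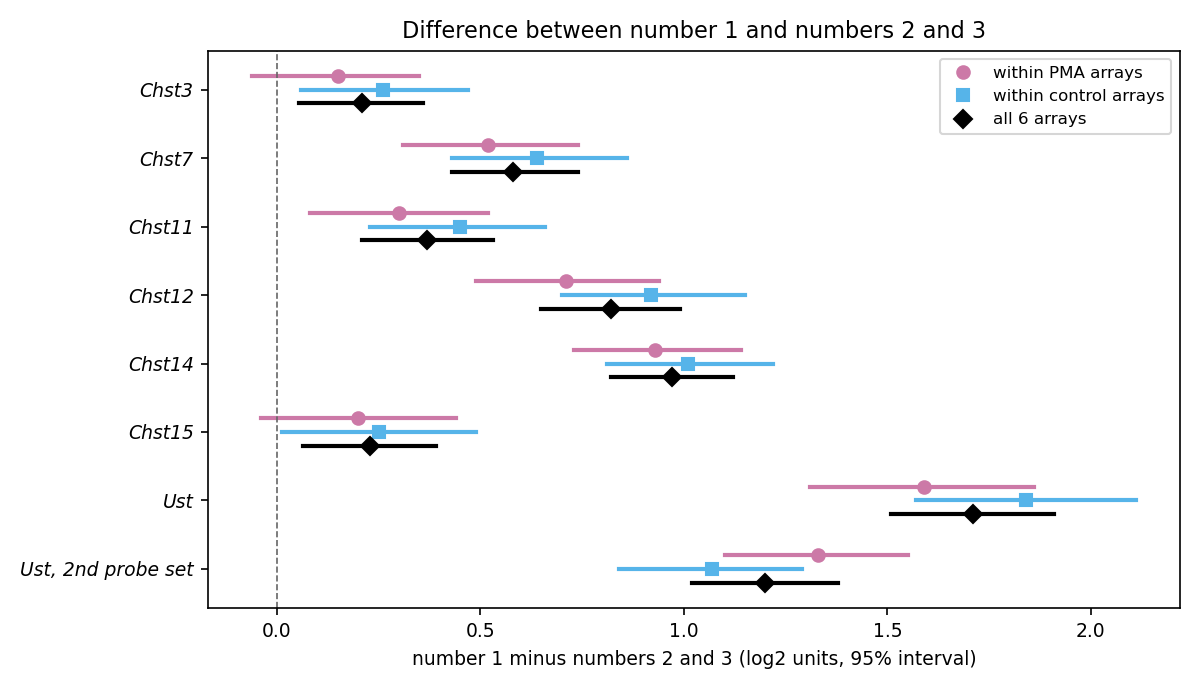
Number 1 minus numbers 2 and 3 (log2 units, x axis) for each member probe set, within PMA arrays (circle), within control arrays (square) and over all 6 arrays (diamond), with 95% intervals from limma. Every estimate lies above 0, from 0.15 for Chst3 within PMA arrays to 1.84 for Ust within control arrays.

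Within each treatment 1 array of number 1 was set against 2 others, with the spread taken from the 4 arrays of numbers 2 and 3. These estimates are the same as those with the other array of number 1 left out and are no further support. Within PMA arrays the difference was 1.59 for Ust, 0.93 for Chst14, 0.71 for Chst12, 0.52 for Chst7 and 0.30 for Chst11, and these 5 passed, against 20.3% of all probe sets called higher and 32.3% called in either direction. Within control arrays it was 1.84 for Ust, 1.01 for Chst14, 0.92 for Chst12, 0.64 for Chst7 and 0.45 for Chst11, and again these 5 passed, against 22.1% called higher and 33.9% in either direction. Chst3 was at 0.15 within PMA arrays and 0.26 within control arrays, and Chst15 at 0.20 and 0.25, all 4 short of the threshold. The interaction of PMA with the number, which tests whether the PMA difference in number 1 departs from that in numbers 2 and 3, was called in 0 of the 7 members and in 1 probe set of all (0.0803%), with 0 members and 70 probe sets (5.62%) at an unadjusted p under 0.05. The estimates ran from -0.25 for Ust to -0.052 for Chst15, while the second Ust probe set was at 0.26. They all share the same 1 PMA and 1 control array of number 1, so their signs are not independent.

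Other genes of the pathway did not share a direction in number 1. The counts below stand against 27.5% of all probe sets called higher and 14.1% called lower. Among the 5 backbone genes 2 were called lower, Chsy3 at -1.53 (SE 0.076) and Csgalnact1 at -0.98, and 2 higher, Csgalnact2 at 0.59 and Chpf, the chondroitin polymerizing factor, at 0.54. The epimerase Dsel was higher at 0.56 (SE 0.076). Of 5 linker enzymes 1 was called, B4galt7 at -0.26, and of 3 genes of sulfate supply 0 were, with Papss1 at -0.17 and Papss2 at 0.15. Degradation had 4 of 7 called higher and 0 lower, led by Galns, the lysosomal 6-sulfatase, at 0.68 and Arsb at 0.62, with Idua at 0.32 and Hexa at 0.26. Chst8 was higher at 0.24.

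The genes listed as core proteins of these chains were split. Of 17 measured, 7 were called higher in number 1, with Smc3 at 0.63 counted among them, and 2 lower. Over all probe sets 27.5% were called higher and 14.1% lower. Tgfbr3, a co-receptor of TGF-β that can carry chondroitin sulfate, read 9.10 with PMA and 8.89 in control in number 1 and averaged 6.02 in the other 4 arrays, a difference of 2.98. Cspg4, a transmembrane chondroitin sulfate proteoglycan, was higher by 2.90, while aggrecan (Acan) differed by -2.57 and decorin (Dcn), a dermatan sulfate proteoglycan, by -2.31. Acan and Dcn are named because they were the only core proteins called lower, after their values were seen.

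**Figure D4:**
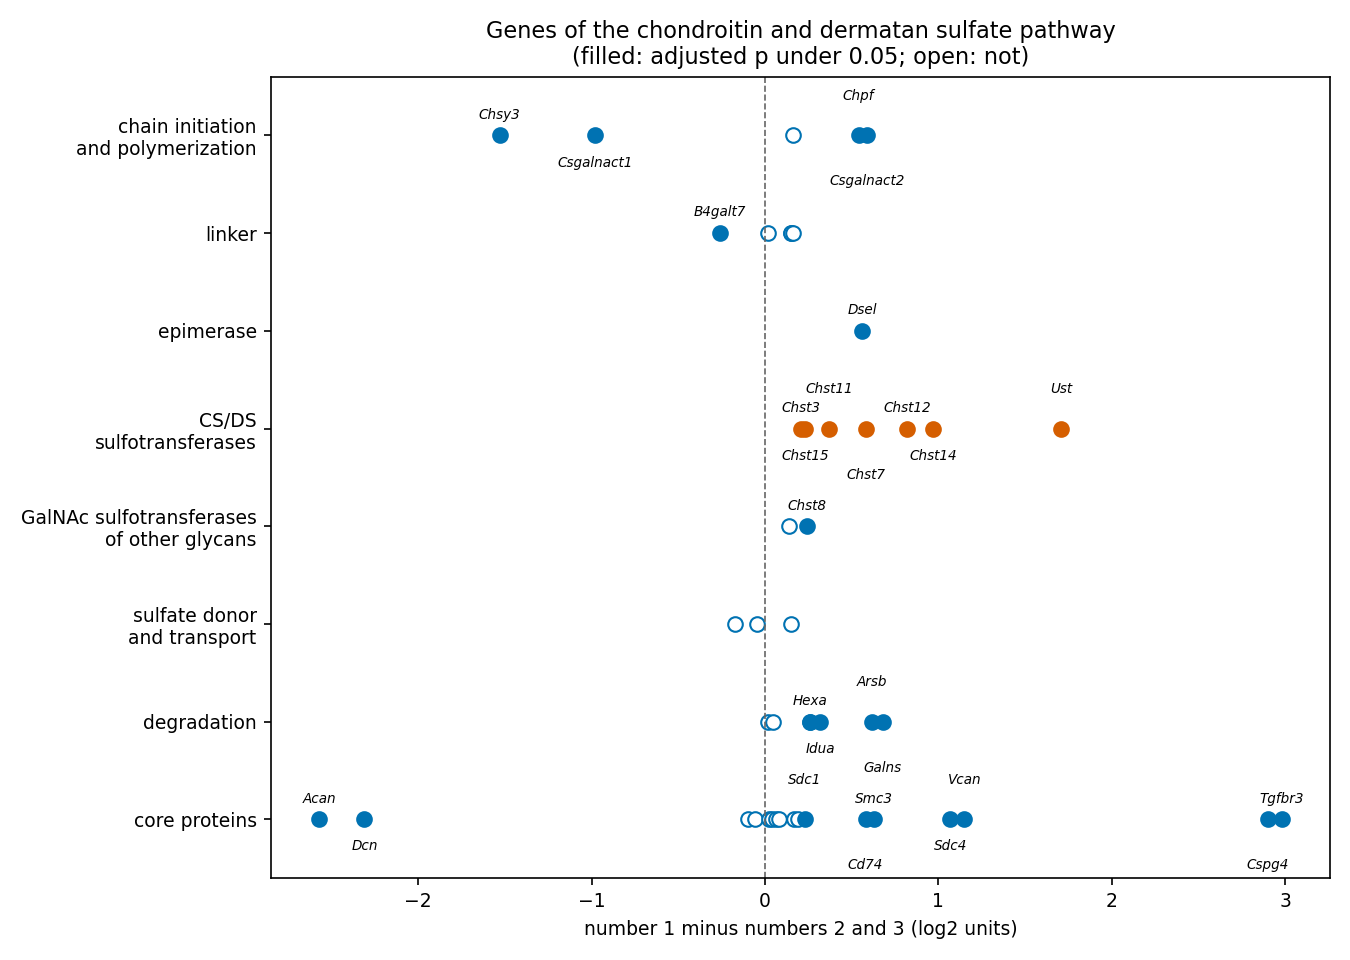
Number 1 minus numbers 2 and 3 (log2 units, x axis) for the measured genes of each list (rows), filled where the adjusted p was under 0.05 by limma and open where not; called genes are named. The 7 sulfotransferases all lie above 0, from 0.21 to 1.71, while the backbone genes and core proteins lie on both sides.

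Some markers of other cells were also called in number 1, where 27.5% of all probe sets were called higher and 14.1% lower. Every array is labelled as the same cell line, and whether other cells were present was not tested. Bulk arrays cannot tell fewer cells of a type from less RNA per cell. Of 16 leukocyte markers 9 were measured, with 1 called higher (Cd74, also in the core protein list, at 0.58) and 2 lower (Ccr7 at -3.22 and Mrc1 at -2.74) in number 1, while the 6 not called lay between -0.090 and 0.080. The mean log2 value of the 9 was 5.26 to 5.43 in number 1 and 5.89 to 5.98 in the other arrays. Their median difference, however, was 0.018, against 0.079 over all probe sets. Of 7 endothelial markers 4 were measured, with Selp called higher at 0.39 and Pecam1, Vcam1 and Sele lower at -1.37, -1.31 and -1.13. Their mean was 6.07 to 6.08 in number 1 and 6.84 to 6.97 in the others. Of 8 fibroblast markers 4 were measured, with Pdgfrb called higher at 0.78, Dcn (also a core protein) lower at -2.31, and Lum and Pdgfra not called at 0.074 and 0.20. Their mean was 5.20 to 5.45 in number 1 and 5.50 to 5.82 in the others, while their median difference was 0.14, of the opposite sign. Named markers are given after their values were seen. Of the lung epithelial pair, Sftpa1 was higher by 0.52 and Sftpd was not called at 0.13. RMA values have no 0, so no marker could be read as absent, and the part of these differences in the result for the sulfotransferases was not tested.

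The genes most like each member over the 6 arrays were found by Pearson correlation among the named genes, as a description in which the distance of number 1 weighs most. Chst12 was closest to Rfng (r = 1.000) and Cd248 (0.997), Chst14 to Mrc2 and Wnt10a (both 0.999), and Ust to Cmah and Gbf1 (both 0.997). Chst11 was closest to Slc35a4 (0.998) and Anapc2 (0.991), Chst7 to Psmc5 (0.996) and Mad2l1bp (0.989), Chst15 to Smpd1 and Cx3cl1 (both 0.994), and Chst3 to Il21 (0.986) and Colec10 (0.985). The means of Il21 and Colec10, 2.99 and 3.12, lay below the lower quartile of every array. Of these 14 genes, 13 were themselves called higher in number 1, with Colec10 the exception. Among the members, pairs correlated between 0.840 and 0.994 over the 6 arrays, and between -0.954 and 0.995 over the 4 arrays without number 1.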

How the data were processed

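The authors deposited log2 values summarised by RMA, per the submitters' processing notes, from Trizol RNA labelled as biotinylated cRNA, per the labels' protocols. Not given in the sources used here are the RMA version, the array's name and annotation, and filters. RMA is meant to equalize the distributions of the arrays, so a shift common to all transcripts may not show. The deposited values were not fully equal, with upper quartiles of 7.967 and 8.049 in number 1 and 7.855 to 7.903 in the others. Of 1246 probe sets, 963 were named by matching the RefSeq accession in their name, without version, to the RefSeq table of GRCm38.p6, and 283 stayed unnamed.

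Values were used as deposited. Comparisons were fitted with limma 3.58.1 in R 4.3.3 (lmFit, eBayes) on the whole table, with Benjamini-Hochberg adjustment over all probe sets and a threshold of 0.05. SE is limma's moderated standard error. The number of arrays limits the precision.

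PMA and control arrays share the replicate numbers 1, 2 and 3. Same-numbered arrays correlated in their deviations from the group mean at 0.956, 0.815 and 0.912 across probe sets, above the 0.1 set for treating them as pairs, so the number was also fitted as a block. PMA 2 correlated with control 3 at 0.838 and PMA 3 with control 2 at 0.886, and the difference between numbers 2 and 3 in PMA arrays correlated with that in control arrays at only 0.0412, so the pairing rests on number 1.

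Members and lists were chosen with earlier results of these data known. Named genes are the members, in each pathway list the 2 with the largest PMA difference and the 2 called with the largest difference of number 1, and the 2 most like each member. Other genes are examples chosen after their values were seen. Promoter sequences are from RefSeq (GRCm38.p6).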

Additional observations from a re-analysis of the deposited data

Results flagged for a closer look

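None of the 7 sulfotransferases met a rule for a closer look. Over the whole table, 1 unnamed probe set, uc009kma.1_psr1_at, had a PMA difference in number 1 that departed from that in numbers 2 and 3 by 1.21 log2 units (SE 0.13, adjusted p = 0.0360 by limma for the interaction). Number 1 has 1 array per treatment, so this p rests on the spread of the other 4 arrays. The probe set read 5.85, 8.31 and 8.21 in PMA arrays, against 4.61, 8.22 and 8.23 in control arrays. It was singled out after its value was seen.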

How the results depend on the processing

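The count of 0 members called for PMA held in every alternative run: the replicate block (0 called), 1 term for number 1, number 1 left out of both groups, median centring, quantile normalization, dim probe sets left out, and each array left out. Over all probe sets it was also 0 in each. The replicate block changed no call. With number 1 left out of both groups, 4 PMA differences turned sign, to 0.0073 for Chst12, 0.0045 for Chst14, 0.0082 for Chst15 and -0.042 for the second Ust probe set. With 1 array left out, which unbalances the numbers, PMA differences ranged from -0.12 to 0.020 for Chst3, -0.36 to 0.030 for Chst7, -0.16 to 0.089 for Chst11, -0.30 to 0.25 for Chst12, -0.33 to 0.31 for Chst14, -0.076 to 0.075 for Chst15, -0.46 to 0.68 for Ust and -0.40 to 0.40 for its second probe set. The lowest came without PMA 1 and the highest without control 1. In the comparison of number 1, between 5 and 7 members and between 403 and 543 probe sets were called with 1 array left out, and no direction turned. The mean of both Ust probe sets gave 0.054 for PMA and 1.46 for number 1. The values within each treatment were added after seeing the data. Signal over background is unknown.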
